A study of Mus musculus with 9 samples.

Results

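The genes described here encode the citric acid cycle of mitochondria, the carriers that bring pyruvate in, the enzymes that refill the cycle and the shuttles that move reducing equivalents across the inner mitochondrial membrane. They were chosen by name, 33 genes out of the 56805 in the deposited table, and all 33 were found in it. The tissue was the left tibialis anterior (TA), a shin muscle made mostly of fast-twitch fibres, from male mice aged 13 months. In all, 3 genotypes with 3 libraries each were compared, labelled Svil-Mut, Svil-KO and WT (wild type), and each library came from 1 mouse. Svil encodes supervillin, a membrane-associated protein that binds actin and myosin, and the series concerns insulin action, glucose use and muscle function in mice with an altered Svil. What the Svil-Mut and Svil-KO alleles change in the gene, in which cells they act, and which strain they were bred on are not stated in the labels.

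In the cycle, the acetyl group made from pyruvate or fatty acids is joined to oxaloacetate and oxidised, and the electrons go to NADH and to complex II of the respiratory chain. The cycle needs refilling when its intermediates are withdrawn, which pyruvate carboxylase and the malic enzymes can do. NADH made in the cytosol by glycolysis cannot cross the inner membrane, so working muscle passes its electrons in through the malate-aspartate shuttle or the glycerophosphate shuttle.

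Expression is given as normalized counts, reads per gene divided by a size factor of the library, which the authors deposited. The recovered depth was 36234428 to 48762188 reads per library. Tests were made with limma on log2(normalized count + 1) over 15279 genes, and a gene passed at a Benjamini-Hochberg adjusted p under 0.05 over all of them. A value measured in whole muscle cannot tell fewer cells of a type from less RNA per cell. Svil had 4615, 3939 and 4582 normalized counts in Svil-Mut libraries 1, 2 and 4, against 7402, 6746 and 6656 in Svil-KO libraries 1, 3 and 4, and 8686, 9373 and 8407 in WT libraries 1, 3 and 4. It fell in Svil-Mut against WT (log2 fold change -1.01, limma adjusted p = 0.000941) and against Svil-KO (-0.67, limma adjusted p = 0.0261), but its difference in Svil-KO against WT did not pass (-0.35, limma adjusted p = 0.997). The call of Svil against Svil-KO held in 15 of 24 alternative settings, with adjusted p up to 0.321 in the others. All 8 skeletal muscle fibre markers were detected in every library, and together they took 21.8% to 22.6% of the counts in Svil-Mut, 18.8% to 20.6% in Svil-KO and 18.2% to 19.9% in WT. A pair of Svil-Mut libraries stood apart in a principal component analysis of all tested genes: library 2 lay at -79.6 on component 1, and library 4 at -79.5 on component 2. On component 3, WT library 1 lay at -65.3 and WT library 3 at 49.3.

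No gene of the cycle or the shuttles passed the test in any comparison. Most of them nevertheless had lower values in Svil-Mut: 26 of 33 fitted log2 fold changes against WT were negative, with a median of -0.18, while over all tested genes 50.7% were negative and the median was -0.0046. Summed over the 33 genes, the transcripts took 1.61%, 1.43% and 1.40% of the counts in Svil-Mut libraries 1, 2 and 4. The sums were 1.76%, 1.63% and 1.85% in Svil-KO libraries 1, 3 and 4, and 1.72%, 1.70% and 1.77% in WT libraries 1, 3 and 4. All 3 Svil-Mut libraries therefore lay below all Svil-KO and WT libraries, with Svil-Mut library 1 close to the lowest Svil-KO library. At an unadjusted p under 0.05 in limma, 14 of the 33 were lower in Svil-Mut than in WT, where 5.32% of all tested genes were, and 2 were higher, where 4.71% were. In 16 of the 33 every Svil-Mut library lay below every WT library, against 6.81% of all tested genes, and in 2 every Svil-Mut library lay above, against 7.13%. The adjusted test called 0 of the 33 and 0.0393% of all tested genes. On the recovered reads, edgeR called 0 and DESeq2 called 0 of the 33 in this comparison. Over all 15279 tested genes, edgeR called 4 higher and 2 lower, and DESeq2 called 103 higher and 73 lower.

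**Figure D1:**
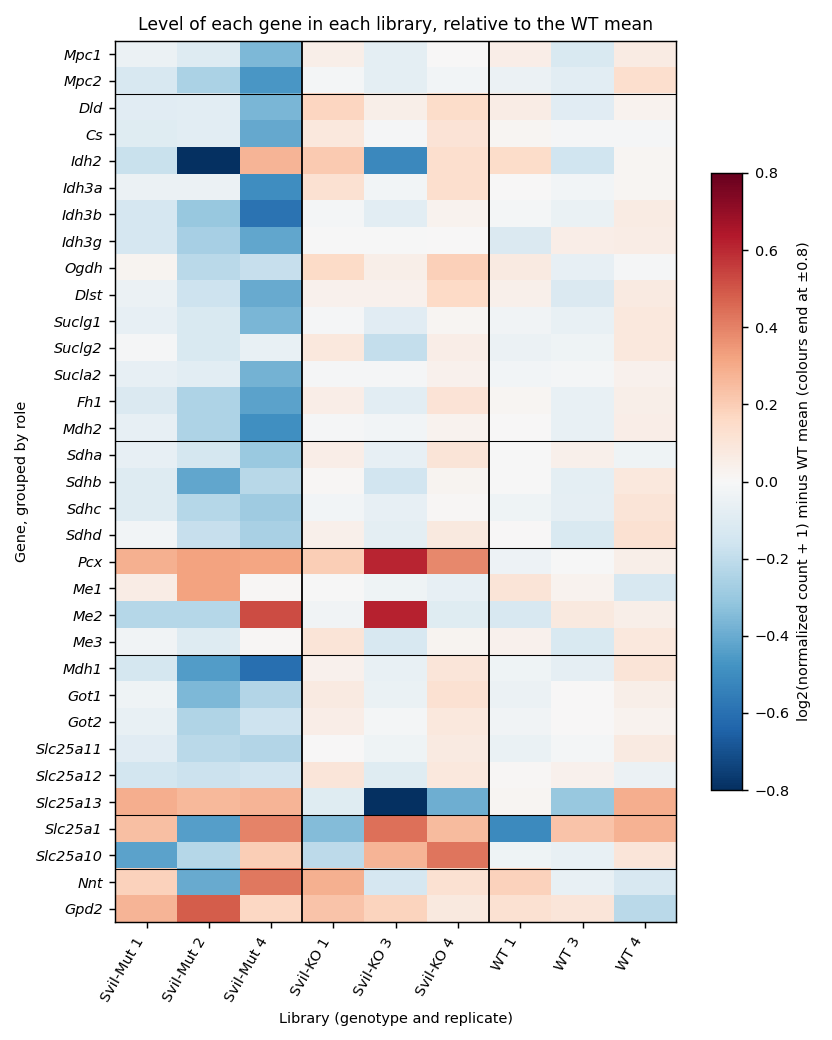
Heat map of the 33 genes (rows, grouped by role with the pyruvate carriers at the top) in the 9 libraries (columns, Svil-Mut, Svil-KO and WT from left to right). Colour is log2(normalized count + 1) minus the WT mean and ends at 0.8 either side. The Svil-Mut columns are mostly blue, with library 4 the lowest of the 9 libraries for 17 genes and library 2 for 8, while Pcx is red in all Svil-Mut and Svil-KO columns.

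Per length, the genes spanned a wide range. In WT, the highest levels per kilobase of merged exons were those of Sdhb (18265 normalized counts per kb), Mdh1 (17854), Sdhd (16750), Mdh2 (15379) and Sdha (14701). Neighbours in this order were close, since the WT libraries of Sdhb (17250 to 19369 per kb), Mdh1 (16946 to 19190 per kb) and Sdhd (15346 to 18176 per kb) overlapped. Merged exons join those of all annotated transcripts of a gene (1231 bases for Sdhd and 14624 for Me3). The order therefore depends partly on the annotation. The lowest levels per kb in WT were those of Slc25a1 (59.5), Slc25a10 (46.4), Me2 (20.1) and Slc25a13 (10.4). Between paralogs, Sucla2, the ADP-forming subunit of succinyl-CoA ligase, stood at 7280 per kb in WT, against 532 for the GDP-forming subunit Suclg2. Likewise, the mitochondrial aspartate-glutamate carrier of muscle, Slc25a12, stood at 3764 per kb in WT, and its liver-type paralog Slc25a13 was the lowest of the 33.

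**Figure D2:**
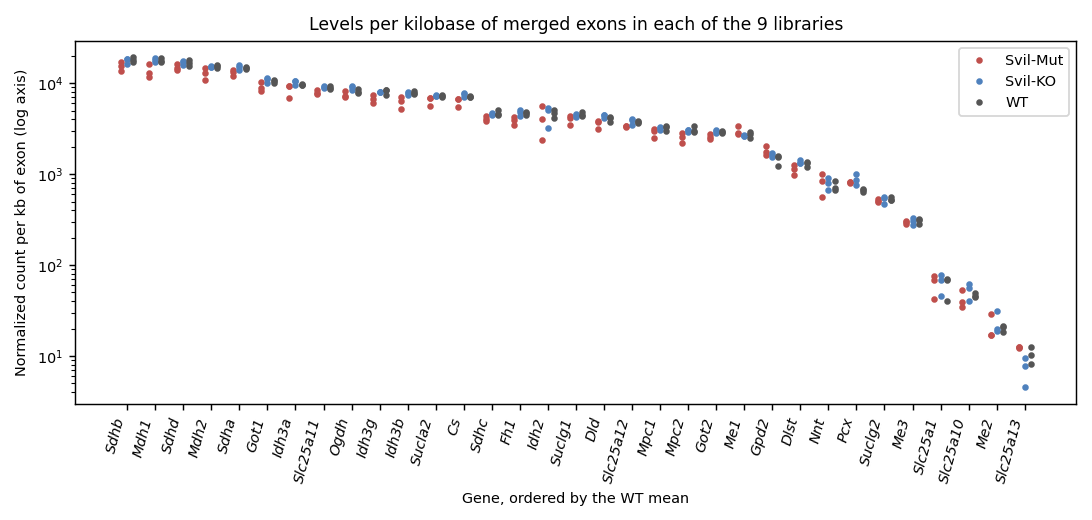
Normalized count per kilobase of merged exons (vertical axis, log scale) for each of the 33 genes, ordered by the WT mean. Each point is 1 library, coloured by genotype; Sdhb leads in WT at 18265 per kb, and Slc25a1, Slc25a10, Me2 and Slc25a13 stand at the right-hand end, with WT means of 10.4 to 59.5 per kb.

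The stretches before a RefSeq start site are shown for 5 of these genes. Cs, Fh1, Idh3g and Slc25a11 were picked from the 14 genes lower in Svil-Mut than WT (unadjusted limma p under 0.05). Pcx was picked from the 2 that were higher at that threshold. Cs makes citrate, Fh1 is fumarase, Idh3g is a regulatory subunit of the NAD-dependent isocitrate dehydrogenase, Slc25a11 is the oxoglutarate carrier and Pcx is pyruvate carboxylase. The sequences come from the RefSeq promoter table on build GRCm38.p6, which held 29 of the 33 genes. Each comes from the longest part of the 250 bases before the start site that lies in no annotated exon. At most 150 bases of it are printed, those nearest the start site. The Slc25a11 stretch ends at -20 and lies within the annotated span of that gene (chr11:70644196-70647479). Another RefSeq promoter of Pcx (chr19:4594069-4594368) is not shown. They are printed 5′ to 3′ on the strand of the gene. Capitals mark a GC box (GGGCGG or its reverse complement CCGCCC) or an ETS motif (CCGGAAG), searched on both strands, and no marked motifs overlap. In Pcx, GC boxes at -151 and -4 from the start site are cut by the ends of the printed stretch and are therefore not marked. Cs lies on the plus strand at chr10:128337577-128337726, Fh1 on the minus strand at chr1:175625636-175625785, Idh3g on the minus strand at chrX:73786898-73787027, Slc25a11 on the minus strand at chr11:70647059-70647208, and Pcx on the plus strand at chr19:4510322-4510471.
Cs: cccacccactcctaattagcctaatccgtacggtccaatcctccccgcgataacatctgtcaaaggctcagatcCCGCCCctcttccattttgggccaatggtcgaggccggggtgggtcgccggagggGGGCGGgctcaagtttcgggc
Fh1: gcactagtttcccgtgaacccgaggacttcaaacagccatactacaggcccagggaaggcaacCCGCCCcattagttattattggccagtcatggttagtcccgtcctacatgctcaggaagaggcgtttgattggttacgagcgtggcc
Idh3g: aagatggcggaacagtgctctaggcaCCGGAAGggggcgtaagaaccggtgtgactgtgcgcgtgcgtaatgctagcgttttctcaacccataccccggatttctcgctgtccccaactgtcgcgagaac
Slc25a11: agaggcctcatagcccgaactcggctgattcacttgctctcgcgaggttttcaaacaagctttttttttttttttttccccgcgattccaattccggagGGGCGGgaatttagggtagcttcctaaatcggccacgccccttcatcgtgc
Pcx: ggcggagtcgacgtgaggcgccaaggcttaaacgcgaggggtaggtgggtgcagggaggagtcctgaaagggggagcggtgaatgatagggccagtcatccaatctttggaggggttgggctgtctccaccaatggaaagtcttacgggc
Over the whole window from 250 bases before to 50 after the start site, 19 of the 29 genes (65.5%) held a GC box, against 38.2% of 27025 genes with a promoter in the table. An ETS motif was found in 6 of the 29 (20.7%) and in 9.93% of all, and the NRF1 motif in 4 (13.8%; Dld, Sdha, Sdhd and Sucla2) and in 5.19% of all. The ERR motif TCAAGGTCA was found in 1 of the 29 (3.45%; Sdhd) and in 0.466% of all, and the CRE motif TGACGTCA in 2 (6.90%; Mdh2 and Ogdh) and in 2.03% of all. These are matches of letters only. A gene counted when any of its promoters matched, and the 27025 genes were not limited to those tested in this muscle.

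Pyruvate enters mitochondria through a carrier made of Mpc1 and Mpc2. Mpc2 had 20650, 18916 and 16304 normalized counts in Svil-Mut libraries 1, 2 and 4, against 22314, 21315 and 22240 in Svil-KO and 21849, 21221 and 24712 in WT libraries 1, 3 and 4. The Svil-Mut libraries lay below all others, and Mpc2 averaged 82.4% of the WT mean there (log2 fold change -0.28 ± 0.09 SE, limma adjusted p = 0.364). Mpc1 averaged 5969 ± 668 in Svil-Mut, 6646 ± 297 in Svil-KO and 6702 ± 475 in WT (n = 3, ± SD), and the libraries overlapped. The processed pseudogene Mpc1-ps reached 4317 normalized counts in the same table, so reads may be divided between it and Mpc1, and the level of Mpc1 is uncertain.

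All 13 enzymes of the cycle itself had negative fold changes in Svil-Mut against WT, and 5 of them (Cs, Idh3b, Idh3g, Fh1 and Mdh2) had an unadjusted p under 0.05. The 3 subunits of the NAD-dependent isocitrate dehydrogenase, a regulated step of the cycle, all had negative fold changes. Idh3b and Idh3g, but not Idh3a, had an unadjusted limma p under 0.05 in Svil-Mut against WT. Idh3b, a non-catalytic subunit, had 24368, 21717 and 17777 normalized counts in Svil-Mut libraries 1, 2 and 4, against 26449, 25242 and 27354 in Svil-KO and 26448, 25847 and 28072 in WT libraries 1, 3 and 4. The highest Svil-Mut library lay below the lowest of the other 6, and the mean was 79.5% of that in WT (log2 fold change -0.34 ± 0.10 SE, limma adjusted p = 0.330). Idh3g, whose upstream ETS motif is shown above, averaged 18218 ± 1776 in Svil-Mut, 21917 ± 38 in Svil-KO and 21980 ± 1484 in WT (n = 3, ± SD; log2 fold change against WT -0.27, limma adjusted p = 0.330). The catalytic subunit Idh3a had 47524, 47421 and 34737 in Svil-Mut libraries 1, 2 and 4, against 49201, 48436 and 49638 in WT. Its difference of -0.20 (limma adjusted p = 0.596) came with Svil-Mut library 4 far below the other 2.

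Citrate synthase catalyses the entry step of the cycle. Cs had 38897, 39187 and 31342 normalized counts in Svil-Mut libraries 1, 2 and 4, against 43973, 41227 and 44870 in Svil-KO and 41941, 41368 and 41359 in WT libraries 1, 3 and 4. No Svil-Mut library reached a WT library, but the log2 fold change of -0.20 (limma adjusted p = 0.491) became -0.09 without Svil-Mut library 4. Fh1, which hydrates fumarate to malate, averaged 13217 ± 1425 in Svil-Mut, 16137 ± 1100 in Svil-KO and 15824 ± 590 in WT (n = 3, ± SD; log2 fold change against WT -0.26, limma adjusted p = 0.365). Mdh2, the mitochondrial malate dehydrogenase that closes the cycle, averaged 45818 ± 6676 in Svil-Mut, 54760 ± 950 in Svil-KO and 54781 ± 2207 in WT (n = 3, ± SD; log2 fold change against WT -0.27, limma adjusted p = 0.398).

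The oxoglutarate dehydrogenase subunits Ogdh, Dlst and Dld had fold changes of -0.13, -0.21 and -0.18 in Svil-Mut against WT, each with an unadjusted limma p above 0.05. Of the succinyl-CoA ligase subunits, Suclg1 (-0.19) and Sucla2 (-0.18) had no Svil-Mut library within the WT range, but over 23 alternative fits these differences were as small as -0.09 for Suclg1 and -0.08 for Sucla2. Suclg2 averaged 2353 ± 89 in Svil-Mut, 2436 ± 244 in Svil-KO and 2459 ± 124 in WT (n = 3, ± SD). Idh2, the NADP-dependent mitochondrial isocitrate dehydrogenase, varied most between mice of 1 genotype. It had 10551, 6138 and 14448 normalized counts in Svil-Mut libraries 1, 2 and 4, against 13807, 8351 and 13144 in Svil-KO and 13217, 10710 and 12065 in WT libraries 1, 3 and 4. Svil-Mut held both the lowest and the highest library of the 9, with a coefficient of variation of 40.1%, and its 95% interval against WT ran from -0.89 to 0.31.

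**Figure D3:**
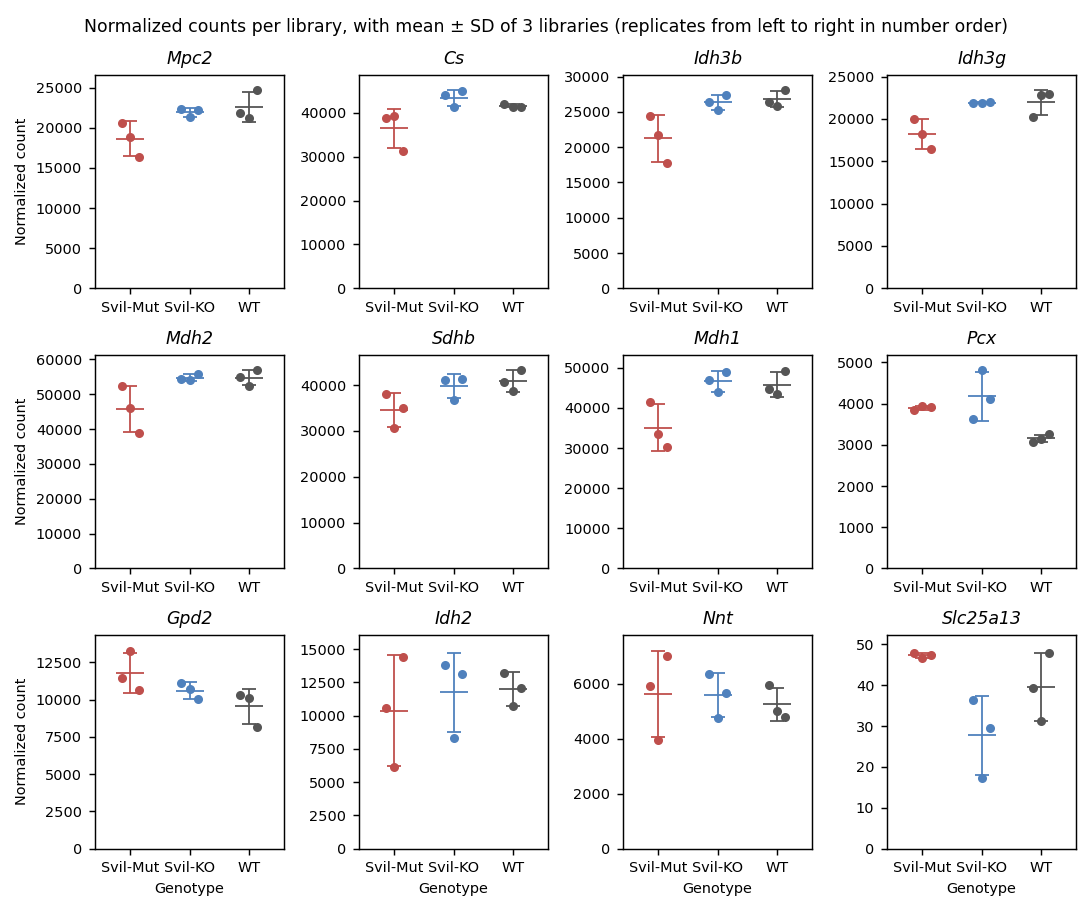
Normalized counts (vertical axes, from 0) of 12 genes in Svil-Mut, Svil-KO and WT; points are libraries and bars the mean ± SD of 3. Svil-Mut lies below both other genotypes for Mpc2, Cs, Idh3b, Idh3g, Mdh2 and Mdh1, Pcx lies lowest in WT, and Idh2 and Nnt spread widely within Svil-Mut.

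Succinate dehydrogenase, which is both a cycle enzyme and complex II, is built from the flavoprotein Sdha, the iron-sulphur protein Sdhb and the membrane anchors Sdhc and Sdhd. All 4 had negative fold changes in Svil-Mut against WT, from -0.25 to -0.15, and 3 of them had an unadjusted p under 0.05. Sdhb had 38049, 30572 and 35051 normalized counts in Svil-Mut libraries 1, 2 and 4, against 41190, 36696 and 41407 in Svil-KO and 40698, 38622 and 43366 in WT libraries 1, 3 and 4. All Svil-Mut libraries lay below all WT libraries, while Svil-Mut library 1 lay above Svil-KO library 3 (log2 fold change against WT -0.25 ± 0.09 SE, limma adjusted p = 0.408). Sdha (-0.17) and Sdhc (-0.21) likewise had no Svil-Mut library in the WT range, and Sdhd (-0.15) overlapped. The ratio of Sdhd to Sdha averaged 0.343 ± 0.012 in Svil-Mut, 0.336 ± 0.001 in Svil-KO and 0.341 ± 0.037 in WT (n = 3, ± SD).

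Of the 33 genes, Mdh1 of the malate-aspartate shuttle had the largest fitted difference between Svil-Mut and WT. Mdh1, the cytosolic malate dehydrogenase (chr11:21556787-21572367, minus strand), had 41476, 33506 and 30188 normalized counts in Svil-Mut libraries 1, 2 and 4, against 46885, 43921 and 48976 in Svil-KO and 44737, 43501 and 49260 in WT libraries 1, 3 and 4. All Svil-Mut libraries lay below the other 6. The mean was 35057 ± 5802 in Svil-Mut, 46594 ± 2540 in Svil-KO and 45833 ± 3032 in WT (n = 3, ± SD). The Svil-Mut mean was 76.5% of the WT mean (log2 fold change -0.40 ± 0.11 SE, limma adjusted p = 0.295). The estimate was -0.53 without Svil-Mut library 1, -0.37 without library 2 and -0.30 without library 4. The ratio of Mdh1 to Mdh2 was 0.793, 0.726 and 0.774 in Svil-Mut libraries 1, 2 and 4, against 0.861, 0.813 and 0.877 in Svil-KO and 0.814, 0.829 and 0.866 in WT libraries 1, 3 and 4. It was lower in every Svil-Mut library than in the other 6, at the smallest p that 3 against 3 libraries allow (2-sided exact permutation p = 0.1 against WT, adjusted p = 0.433 over 39 tests of 13 ratios).

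Of the other 5 genes of the shuttle, Got1, Got2, Slc25a11 and Slc25a12 also had negative fold changes in Svil-Mut against WT, and Slc25a13 a positive one. Got1, the cytosolic aspartate aminotransferase, averaged 23238 ± 2655 in Svil-Mut, 27695 ± 1697 in Svil-KO and 26764 ± 841 in WT (n = 3, ± SD), with the highest Svil-Mut library inside the WT range (log2 fold change against WT -0.21, limma adjusted p = 0.445). Got2, the mitochondrial form, averaged 12600 ± 811 in Svil-Mut, 14416 ± 507 in Svil-KO and 14012 ± 267 in WT (n = 3, ± SD), with no overlap (log2 fold change against WT -0.16, limma adjusted p = 0.483). The pseudogene Got2-ps1 reached 124 normalized counts, so reads may be divided here too. Slc25a12, the calcium-sensing aspartate-glutamate carrier, had 24971, 24490 and 24815 normalized counts in Svil-Mut libraries 1, 2 and 4, against 29588, 25782 and 29249 in Svil-KO and 27844, 28323 and 26737 in WT libraries 1, 3 and 4. Its Svil-Mut libraries were tight and below all others (log2 fold change against WT -0.16 ± 0.07 SE, limma adjusted p = 0.476). Slc25a11, which exchanges malate for oxoglutarate, differed by -0.18 from WT (limma adjusted p = 0.422). Slc25a13 had only 48, 47 and 47 normalized counts in Svil-Mut libraries 1, 2 and 4, against 36, 17 and 30 in Svil-KO and 39, 31 and 48 in WT libraries 1, 3 and 4, and is too low for a precise estimate (95% interval against WT -0.61 to 1.15).

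Among the enzymes that refill the cycle, Pcx differed in the other direction. Pcx, which carboxylates pyruvate to oxaloacetate (chr19:4510472-4621752, plus strand), had 3842, 3940 and 3925 normalized counts in Svil-Mut libraries 1, 2 and 4, against 3618, 4808 and 4122 in Svil-KO and 3064, 3148 and 3254 in WT libraries 1, 3 and 4. Every Svil-Mut and every Svil-KO library lay above every WT library. The log2 fold change against WT was 0.31 ± 0.10 SE in Svil-Mut (limma adjusted p = 0.356) and 0.40 ± 0.10 SE in Svil-KO (limma adjusted p = 0.997). Both comparisons share the WT libraries, whose Pcx values were tight (3155 ± 95 in WT, SD, n = 3). Without Svil-KO library 3 the Svil-KO estimate was 0.29. The ratio of Pcx to Cs averaged 0.108 ± 0.015 in Svil-Mut, 0.097 ± 0.018 in Svil-KO and 0.076 ± 0.003 in WT (n = 3, ± SD), without overlap between WT and either altered genotype (2-sided exact permutation p = 0.1 for each, adjusted p = 0.433).

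The malic enzymes, which interconvert malate and pyruvate, did not share this pattern. Cytosolic Me1 averaged 11570 ± 1379 in Svil-Mut, 10255 ± 222 in Svil-KO and 10526 ± 838 in WT (n = 3, ± SD), and its highest library was Svil-Mut library 2, at 13147. Mitochondrial Me3 averaged 4329 ± 174 in Svil-Mut, 4466 ± 357 in Svil-KO and 4463 ± 328 in WT (n = 3, ± SD). Mitochondrial Me2 was low, at 124 to 210 normalized counts in Svil-Mut, 136 to 224 in Svil-KO and 133 to 154 in WT.

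Of the remaining genes, Gpd2 was the other one that was higher in Svil-Mut than in WT at an unadjusted p under 0.05. Gpd2, the mitochondrial arm of the glycerophosphate shuttle, had 11453, 13280 and 10625 normalized counts in Svil-Mut libraries 1, 2 and 4, against 11098, 10717 and 10008 in Svil-KO and 10325, 10131 and 8157 in WT libraries 1, 3 and 4. All Svil-Mut libraries lay above all WT libraries, and WT library 4 was the lowest (log2 fold change 0.31 ± 0.11 SE, limma adjusted p = 0.398). The estimate was 0.22 without Svil-Mut library 2 and 0.20 without WT library 4, each with an unadjusted limma p above 0.05. Gpd2 shares 487 exon bases with an opposite-strand transcript, and the library kit does not mark strand, so their reads cannot be told apart. The same holds for Mpc1, Me3, Got2, Slc25a11 and Slc25a10, which share 189 to 569 exon bases with an opposite-strand gene.

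Nnt, the proton-pumping transhydrogenase that makes mitochondrial NADPH, had 5918, 3943 and 7002 normalized counts in Svil-Mut libraries 1, 2 and 4, against 6343, 4761 and 5668 in Svil-KO and 5935, 5011 and 4770 in WT libraries 1, 3 and 4. As for Idh2, the lowest and the highest of the 9 libraries were Svil-Mut libraries 2 and 4. The annotation holds a second Nnt entry on the same strand that shares 3339 exon bases with the one described, so reads may be divided between them and the level of Nnt is uncertain. A multi-exon deletion of Nnt is known in C57BL/6J mice, and counts summed over the gene do not show whether these mice carry it. The citrate carrier Slc25a1 (92 to 165 normalized counts in Svil-Mut, 98 to 170 in Svil-KO and 88 to 152 in WT) and the dicarboxylate carrier Slc25a10 (119 to 184 in Svil-Mut, 139 to 216 in Svil-KO and 154 to 171 in WT) were low throughout and overlapped.

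In Svil-KO against WT, Pcx was the single gene of the 33 with an unadjusted p under 0.05, a share of 3.03%, where 4.11% of all tested genes were under it (2.36% higher and 1.75% lower). It was also the single one whose libraries did not overlap, where 5.20% of all tested genes did not overlap in the higher direction and 5.45% in the lower. The adjusted test called 0.00% of all tested genes. The median log2 fold change of the 33 was 0.02, beside 0.0031 over all tested genes, with 22 positive and 11 negative, where 49.4% of all tested genes were negative. For 26 of the 33 the 95% interval lay within 0.5 on the log2 scale either side of 0. Ogdh (0.13, limma adjusted p = 0.997) and Dld (0.12, limma adjusted p = 0.997) followed Pcx in order of unadjusted p, with Gpd2 (0.16, limma adjusted p = 0.997) between them.

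Svil-Mut against Svil-KO tests directly whether the 2 altered genotypes differ. It shares its Svil-Mut libraries with the comparison against WT. At an unadjusted p under 0.05 in limma, 18 of the 33 were lower in Svil-Mut, where 5.51% of all tested genes were, and 0 were higher, where 4.67% were. In 17 every Svil-Mut library lay below every Svil-KO library, against 7.55% of all tested genes, and in 2 (Slc25a13 and Me1) every Svil-Mut library lay above, against 7.66%. Negative fold changes were found in 30 of the 33 and in 51.4% of all tested genes. The adjusted test in limma called 0 of the 33 and 0.0458% of all tested genes. DESeq2 on the recovered reads called Mdh1 alone of the 33 (log2 fold change -0.41, DESeq2 adjusted p = 0.0328). Over all 15279 tested genes, DESeq2 called 116 higher and 100 lower, so it passed genes far more readily than limma. In limma Mdh1 averaged 75.2% of the Svil-KO mean in Svil-Mut (log2 fold change -0.42 ± 0.11 SE, limma adjusted p = 0.244). The 3 subunits of oxoglutarate dehydrogenase, each with an unadjusted p above 0.05 against WT, were under it here, at -0.26 for Ogdh (limma adjusted p = 0.327), -0.28 for Dlst (limma adjusted p = 0.371) and -0.30 for Dld (limma adjusted p = 0.323). Dld had 13946, 14036 and 11504 normalized counts in Svil-Mut libraries 1, 2 and 4, against 16714, 15336 and 16416 in Svil-KO libraries 1, 3 and 4, so the groups did not overlap. Without Svil-Mut library 4 the 18 lower genes became 11, and without Svil-KO library 4 they became 8. For Pcx the difference was -0.09 (95% interval -0.31 to 0.13).

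**Figure D4:**
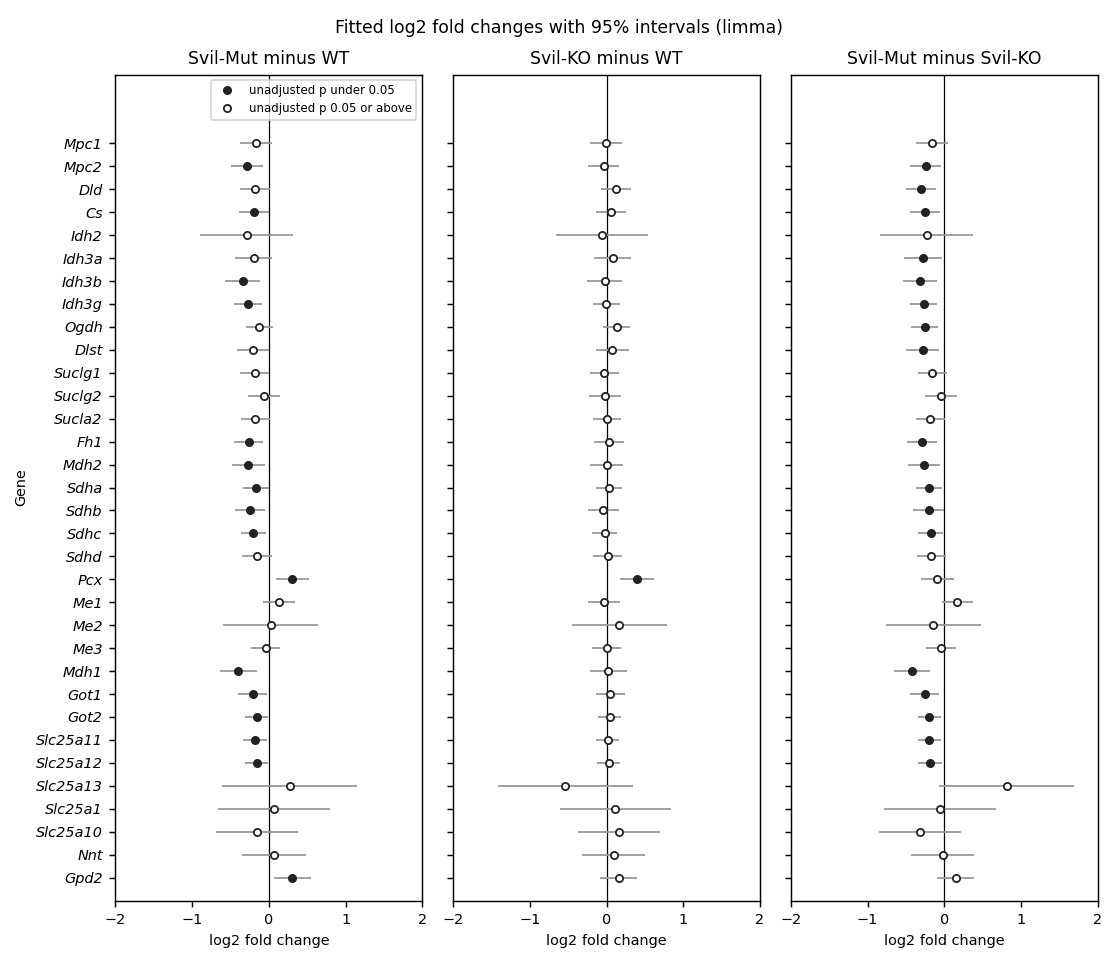
Fitted log2 fold changes with 95% intervals (horizontal axes) of the 33 genes for Svil-Mut minus WT, Svil-KO minus WT and Svil-Mut minus Svil-KO; filled points have an unadjusted limma p under 0.05. Points lie mostly left of 0 in the panels with Svil-Mut (medians -0.18 and -0.20) and around 0 in Svil-KO minus WT (median 0.02), and no gene had an adjusted p under 0.05.

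Within Svil-Mut the mice were uneven. The median deviation of the 33 genes from the WT mean was -0.07, -0.22 and -0.24 on the log2 scale in Svil-Mut libraries 1, 2 and 4, against 0.04, -0.05 and 0.08 in Svil-KO libraries 1, 3 and 4. The median coefficient of variation between libraries was 11.2% in Svil-Mut, 5.45% in Svil-KO and 5.82% in WT. Without Svil-Mut library 4, 7 genes were lower than in WT at an unadjusted p under 0.05, and the median log2 fold change was -0.11. Without Svil-Mut library 2 the count was 12 and the median -0.16, and without Svil-Mut library 1 the count was 21 and the median -0.23. Leaving out WT library 4 left 5 such genes, with a median of -0.15.

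Genes of fibre types and of other cells were summed in the same libraries. The 12 slow and oxidative fibre genes summed to 82894, 43563 and 70731 normalized counts in Svil-Mut libraries 1, 2 and 4, against 106672 to 168293 in Svil-KO and 116194 to 171080 in WT, with none of the 12 at 0 in any library. All 12 had negative fold changes in Svil-Mut against WT, where 50.7% of all tested genes did, and 5 had an unadjusted p under 0.05, where 5.32% did in that direction. None passed (smallest limma adjusted p = 0.164). The 10 fast fibre genes took 17.0% to 18.0% of the counts in Svil-Mut, 15.3% to 16.5% in Svil-KO and 15.0% to 16.4% in WT. Of these 10, 8 had positive and 2 negative fold changes in Svil-Mut against WT, and log2 fold changes of the 10 ran from -0.73 to 0.42. Atp2a1 and Actn3 were higher at an unadjusted limma p under 0.05, where 4.71% of all tested genes were. Against Svil-KO, Myh1 was lower in Svil-Mut at an unadjusted limma p under 0.05, while Tnnt3, Pvalb and Actn3 were higher. Of all tested genes, 5.51% were lower and 4.67% higher there. Svil-Mut library 2 was the lowest of the 9 for 11 of the 12 slow and oxidative fibre genes. For the 33 cycle and shuttle genes, Svil-Mut library 4 was the lowest for 17 and library 2 for 8. The 8 red blood cell genes summed to 10717, 19653 and 53916 in Svil-Mut libraries 1, 2 and 4, against 7080 to 11065 in Svil-KO and 9166 to 13242 in WT. Of the 8, 7 had positive fold changes in Svil-Mut against WT and 5 an unadjusted p under 0.05, where 4.71% of all tested genes were higher at that threshold. Slc4a1 was at 0 in Svil-KO libraries 1 and 4 and in WT library 4. The 8 macrophage and leukocyte markers summed to 1168 to 3183 in Svil-Mut, 1183 to 2818 in Svil-KO and 1118 to 1660 in WT, with the highest sum in Svil-Mut library 4, Itgam at 0 in Svil-Mut library 1, Svil-KO library 4 and WT library 4, and Adgre1 at 0 in Svil-Mut library 2. The 9 adipocyte markers summed to 7016 to 10388 in Svil-Mut, 8369 to 9608 in Svil-KO and 9555 to 11285 in WT, and the sums of Svil-Mut and WT overlapped. Of the 8 tested, 6 had negative fold changes in Svil-Mut against WT, where 50.7% of all tested genes did. The median over the 8 was -1.35. In limma, 4 (Fabp4, Lep, Cidec and Adipoq) were lower at an unadjusted p under 0.05, where 5.32% of all tested genes were. None passed (smallest limma adjusted p = 0.350). In Svil-KO against WT, 7 of the 8 were negative, where 49.4% of all tested genes were, with a median of -1.28. There 0 had an unadjusted p under 0.05, where 4.11% of all tested genes did. Ucp1 was at 0 in all libraries, Cidec and Lep in Svil-Mut libraries 1 and 2, Retn in Svil-Mut library 2, and Pck1 in Svil-Mut library 2 and WT library 1. In Svil-Mut against WT, negative fold changes were found in 8 of 8 fibro-adipogenic, 6 of 8 tendon and 5 of 8 satellite cell markers. The counts were 6 of 8 for nerve and Schwann cells, 4 of 8 for smooth muscle and pericytes, and 3 of 8 for endothelium. At an unadjusted limma p under 0.05, 1 tendon and 2 satellite cell markers were lower, where 5.32% of all tested genes were. No gene of these lists passed. The part of fibre type and of these other cells in the differences of the 33 genes was not tested.

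**Figure D5:**
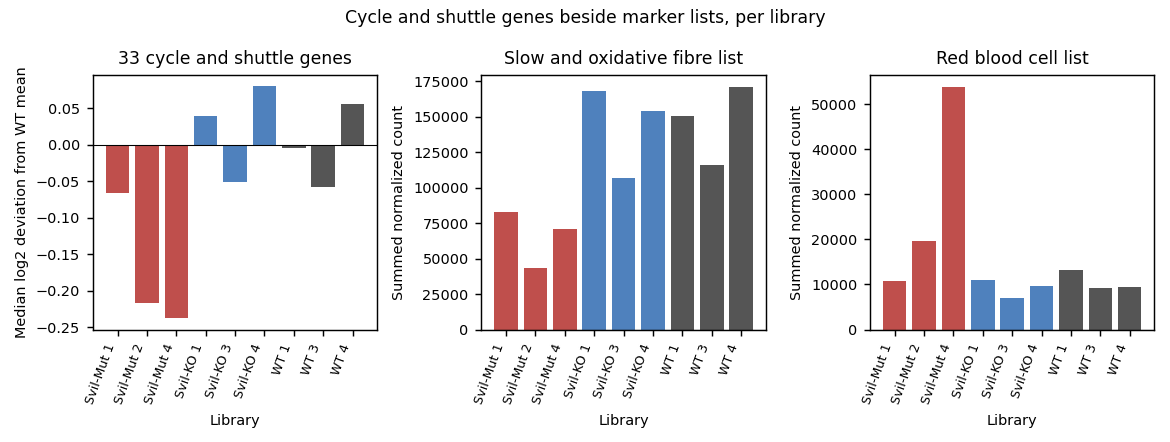
Bars for the 9 libraries, coloured by genotype: the median log2 deviation of the 33 genes from the WT mean (left), the summed normalized count of 12 slow and oxidative fibre genes (middle) and of 8 red blood cell genes (right). Svil-Mut libraries 2 and 4 are lowest on the left (-0.22 and -0.24), library 2 is lowest in the middle (43563) and library 4 is highest on the right (53916).

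Genes around the cycle were taken from 4 lists with 38 genes, of which 37 were tested. In Svil-Mut against WT, 9 of the 37 were lower at an unadjusted p under 0.05, where 5.32% of all tested genes were, 0 were higher, where 4.71% were, and 0 passed, where 0.0393% did (smallest limma adjusted p = 0.279), with a median log2 fold change of -0.14. Pyruvate dehydrogenase, which makes the acetyl-CoA that Cs uses, had its catalytic subunit Pdha1 at 20798, 19290 and 16404 normalized counts in Svil-Mut libraries 1, 2 and 4, against 23380, 22870 and 25089 in Svil-KO and 22874, 22986 and 22054 in WT libraries 1, 3 and 4. The Svil-Mut libraries were below the other 6 (log2 fold change against WT -0.27, limma adjusted p = 0.351). Pdk4, the kinase that switches this complex off, had 5976, 9859 and 11614 in Svil-Mut libraries 1, 2 and 4, against 17239, 19050 and 52098 in Svil-KO and 39432, 17331 and 52686 in WT libraries 1, 3 and 4. Here too no Svil-Mut library reached the others, but Svil-KO and WT spread widely (log2 fold change against WT -1.91 ± 0.47 SE, limma adjusted p = 0.279). Slc25a22, a mitochondrial glutamate carrier, averaged 504 ± 132 in Svil-Mut, 1050 ± 237 in Svil-KO and 1072 ± 362 in WT (n = 3, ± SD; log2 fold change against WT -1.06, limma adjusted p = 0.292).

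In Svil-Mut against Svil-KO, 13 of the 37 were lower and 1 (Pdk3) higher at an unadjusted p under 0.05, where 5.51% of all tested genes were lower and 4.67% higher, and 0 passed in limma (smallest adjusted p = 0.212). The smallest p were those of Pdp1, the phosphatase that switches pyruvate dehydrogenase on (-0.38, limma adjusted p = 0.212), and its core subunit Dlat (-0.42, limma adjusted p = 0.212), followed by Pdha1 (-0.34, limma adjusted p = 0.244) and the monocarboxylate transporter Slc16a1 (-0.40, limma adjusted p = 0.264). In Svil-KO against WT, 0 of the 37 had an unadjusted p under 0.05, where 4.11% of all tested genes did.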

How the data were processed

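Per the labels' protocols, RNA was primed with oligo(dT), amplified as full-length cDNA (SMARTer v4) and made into libraries by Nextera XT tagmentation, and all libraries carry 1 batch label. These kits do not mark strand. Per the submitters' processing notes, HISAT2, featureCounts and DESeq2 were used on mm10; their versions and the annotation are not stated there. The deposited values are a signal: for every gene, reads scaled by a size factor for each library. Whole reads were recovered from its steps (100% of values whole within 0.01).

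Genes reaching 10 normalized counts in at least 3 libraries were tested with limma 3.58.1 (R 4.3.3), mean-variance trend, a model with genotype alone, fitted to all 9 libraries. A pseudocount of 1 understates changes of low genes. The scaling presumes that the bulk of genes is equal between libraries, and p-values cover 3 mice per genotype. Ratios were tested by exact permutation. Lengths and positions came from GENCODE M21 (GRCm38), which need not be the annotation counted on. edgeR 4.0.16 and DESeq2 1.42.0 on recovered reads, other pseudocounts, filters, scalings, variance models, a replicate block and leaving out each library were alternatives; the steps were tested on simulated data. All 33 genes are named; up to 8 genes of the 4 surrounding lists were taken by smallest unadjusted p, and Pdk3, the regulators and single marker genes were picked after seeing values. The genes and lists were chosen with earlier results of these data known.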

Additional observations from a re-analysis of the deposited data

How the results depend on the processing

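No gene of the 33 passed an adjusted p of 0.05 in Svil-Mut or Svil-KO against WT under any of 23 alternative settings. At an adjusted p of 0.10 limma as reported called 0, while Mdh1 in Svil-Mut against WT had an adjusted p of 0.0614 in DESeq2. In Svil-Mut against Svil-KO, DESeq2 called 1 of them (Mdh1). Of the surrounding genes, the replicate block called 1 (Pdk4) and DESeq2 1 (Slc25a22) in Svil-Mut against WT, and DESeq2 called 5 in Svil-Mut against Svil-KO. Over all 15279 tested genes, the replicate block called 3 higher and 4 lower in Svil-Mut against WT, and DESeq2 103 higher and 73 lower. DESeq2 called 116 higher and 100 lower over all of them in Svil-Mut against Svil-KO. The median log2 fold change of the 33 stayed between -0.23 and -0.11 in Svil-Mut against WT, between -0.0098 and 0.07 in Svil-KO against WT, and between -0.25 and -0.15 in Svil-Mut against Svil-KO.

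Counts at an unadjusted p under 0.05, which were added after the data had been seen, moved more. In Svil-Mut against WT the 14 lower genes became 9 with quantile normalization, 4 without the variance trend and 9 with library weights, and 5 to 21 with 1 library left out; the 2 higher became 1 without the trend and 1 to 2 with 1 library left out. In Svil-Mut against Svil-KO the 18 lower genes became 11 with quantile normalization, 6 without the trend and 8 (without Svil-KO library 4) to 21 with 1 library left out; the 0 higher became 1 without the trend and 0 to 1 with 1 library left out. The cause was not tested.

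Svil in Svil-Mut against WT had an adjusted p of 0.0551 without the trend, at the same log2 fold change of -1.01. In Svil-Mut against Svil-KO, Svil missed the threshold without the trend (-0.67, adjusted p = 0.321), with only those 2 genotypes in the fit (-0.67, adjusted p = 0.107) and with the replicate block (-0.58, adjusted p = 0.148), and ranged from -0.71 to -0.59 with 1 library left out. That call of Svil was also lost without Svil-Mut library 2, without each of Svil-KO libraries 1, 3 and 4, and without WT library 1 or 4 (adjusted p = 0.0610 to 0.110). Correlations of same-numbered libraries were all under 0.1, the level set for pairing (-0.056 to 0.044). In Svil-KO and WT the 3 same-numbered pairs were at 0.026 to 0.044 and the other 6 at -0.035 to -0.0023. The numbers were therefore not used as pairs; with the replicate block 0 of the 33 passed in each comparison.

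Depth limits the 4 genes under 250 normalized counts (Me2, Slc25a1, Slc25a10 and Slc25a13). With equal totals, 16 of the 33 were negative in Svil-KO against WT, with quantile normalization 15, with TMM factors 10 and as reported 11.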

Other observations

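Regulators of mitochondrial genes, a list of 10, had no common direction in Svil-Mut against WT, with 5 positive and 5 negative fold changes. None passed the adjusted test in limma (smallest adjusted p = 0.325). At an unadjusted limma p under 0.05, 2 were lower (Esrrg and Esrra), where 5.32% of all tested genes were. At that threshold 1 was higher (Nfe2l2), where 4.71% were. Every Svil-Mut library lay above every WT library for Nfe2l2 and Nrf1, where 7.13% of all tested genes did so. Every one lay below for Esrrg, where 6.81% did. Esrrg, an oestrogen-related receptor that binds the ERR motif, had 679, 447 and 762 normalized counts in Svil-Mut libraries 1, 2 and 4, against 976, 695 and 1119 in Svil-KO and 904, 980 and 920 in WT libraries 1, 3 and 4. All Svil-Mut libraries lay below WT, and library 2 was again the lowest (log2 fold change -0.61, limma adjusted p = 0.398). Esrra, its paralog, averaged 2923 ± 444 in Svil-Mut, 3785 ± 230 in Svil-KO and 3636 ± 296 in WT (n = 3, ± SD; log2 fold change against WT -0.32, limma adjusted p = 0.402). Nfe2l2, the antioxidant regulator NRF2, differed in the other direction (0.62 in Svil-Mut against WT, limma adjusted p = 0.325). Gabpa, an ETS factor, had 1033, 1205 and 1213 in Svil-Mut libraries 1, 2 and 4, against 1497, 1324 and 1590 in Svil-KO and 1119, 1028 and 1224 in WT libraries 1, 3 and 4, so the Svil-KO libraries lay above the other 6 (log2 fold change of Svil-KO against WT 0.39, limma adjusted p = 0.997).

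Of the ratios between isocitrate dehydrogenase subunits, that of Idh3a to Idh3b did not overlap between WT and either altered genotype, and that of Idh3a to Idh3g overlapped in every comparison. The ratio of Idh3a to Idh3b was 1.95, 2.18 and 1.95 in Svil-Mut libraries 1, 2 and 4, against 2.02, 1.92 and 1.97 in Svil-KO and 1.86, 1.87 and 1.77 in WT libraries 1, 3 and 4. WT lay below both altered genotypes without overlap (2-sided exact permutation p = 0.1 for each, the smallest possible; adjusted p = 0.433). The ratio of Idh3a to Idh3g averaged 2.36 ± 0.24 in Svil-Mut, 2.37 ± 0.13 in Svil-KO and 2.24 ± 0.16 in WT (n = 3, ± SD).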
